A study of Mus musculus with 4 samples.

Results

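Aortic vascular smooth muscle cells lacking LAMP-2A (L2AKO) were set against wild-type (WT) cells, both kept without LDL. Each line had 1 array in this condition, titled control, out of 4 arrays in the series, and both control arrays lay on 1 slide. The array carried 55679 probes, and 24341 of them were well above background on both control arrays. Through their RefSeq accessions the probes named 21367 genes, of which 12594 were measured, that is, the gene's brightest probe was well above background on both control arrays. A level is the log2 of the processed probe signal minus the array's 75th percentile, so that a level of 0 lies at that percentile. A difference is the level on the L2AKO control array minus the level on the WT control array. Levels are given in the order WT control, L2AKO control.

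All cells came from C57BL/6J mice and had been grown from 5 thoracic aortas digested with collagenase, per the labels. They were used at passages 12 to 16, and as far as the labels tell there was 1 line per genotype. The sources used here do not say how the LAMP-2A allele was made. WT control and L2AKO control cells were grown to confluence and then held for 24 h in DMEM with 5% lipoprotein-deficient serum. The WT LDL and L2AKO LDL groups, used here only beside the control pair, had in the same medium LDL at 150 µg/ml LDL-cholesterol and bovine lipoprotein lipase at 0.1 U/ml. The sources used here do not say whether the control cells also had lipase. The RNA on each array was pooled from a triplicate, so every group was 1 pooled sample. No spread between cultures or animals could be measured, and the values below are differences between these arrays, without a test.

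LAMP-2A is 1 of the splice forms of the lysosomal membrane protein made by Lamp2. In chaperone-mediated autophagy, the chaperone Hspa8 (Hsc70) recognises single cytosolic proteins by a short motif and brings them to LAMP-2A, which multimerises and lets them pass into the lysosome. Smooth muscle cells of the aortic media contract through actin and myosin in the intact vessel, and in culture they divide, lose part of that contractile programme and secrete matrix. Serum without lipoproteins deprives them of LDL cholesterol, a state in which the genes of cholesterol synthesis are induced.

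Of the 12594 measured genes, 952 (7.56%) were at least 2-fold higher in L2AKO control and 1034 (8.21%) at least 2-fold lower, together 1986 genes (15.8%). The counts of the lists below are to be read beside these shares. A list near them is not set apart from the measured genes at large. The spread was wide but centred, with a median difference of -0.01, quartiles of -0.38 and 0.34 and an SD over genes of 0.88. At least 4-fold higher were 240 genes and at least 4-fold lower 305, and at least 16-fold 25 and 28. A further 632 genes were well above background on L2AKO control alone, 4.54% of the 13915 genes well above background on either array, and 689 (4.95%) on WT control alone. These have only a bound, which reached 2-fold for 288 (45.6%) and 442 (64.2%) of them. A bound holds for this background correction only. After another correction (normexp) the genes with the largest bounds differed by less than their bounds. The 75th percentile of the signal was 318.8 and 389.4, no spot was saturated, and probes printed 10 times on an array had a median SD of 0.050 and 0.054. That SD covers spots within an array and not the making of a sample. Of the other probes of genes at least 2-fold higher, 196 of 207 lay on the same side of 0 and 152 were at least 2-fold higher too, and of 205 other probes of the lower genes 196 lay on the same side and 135 were at least 2-fold lower. With LDL, on arrays of different slides, 1073 of 12936 genes (8.29%) lay 2-fold or more higher and 1341 (10.4%) lower. The L2AKO LDL array lay on a slide of its own, where slide and group cannot be told apart.

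**Figure D1:**
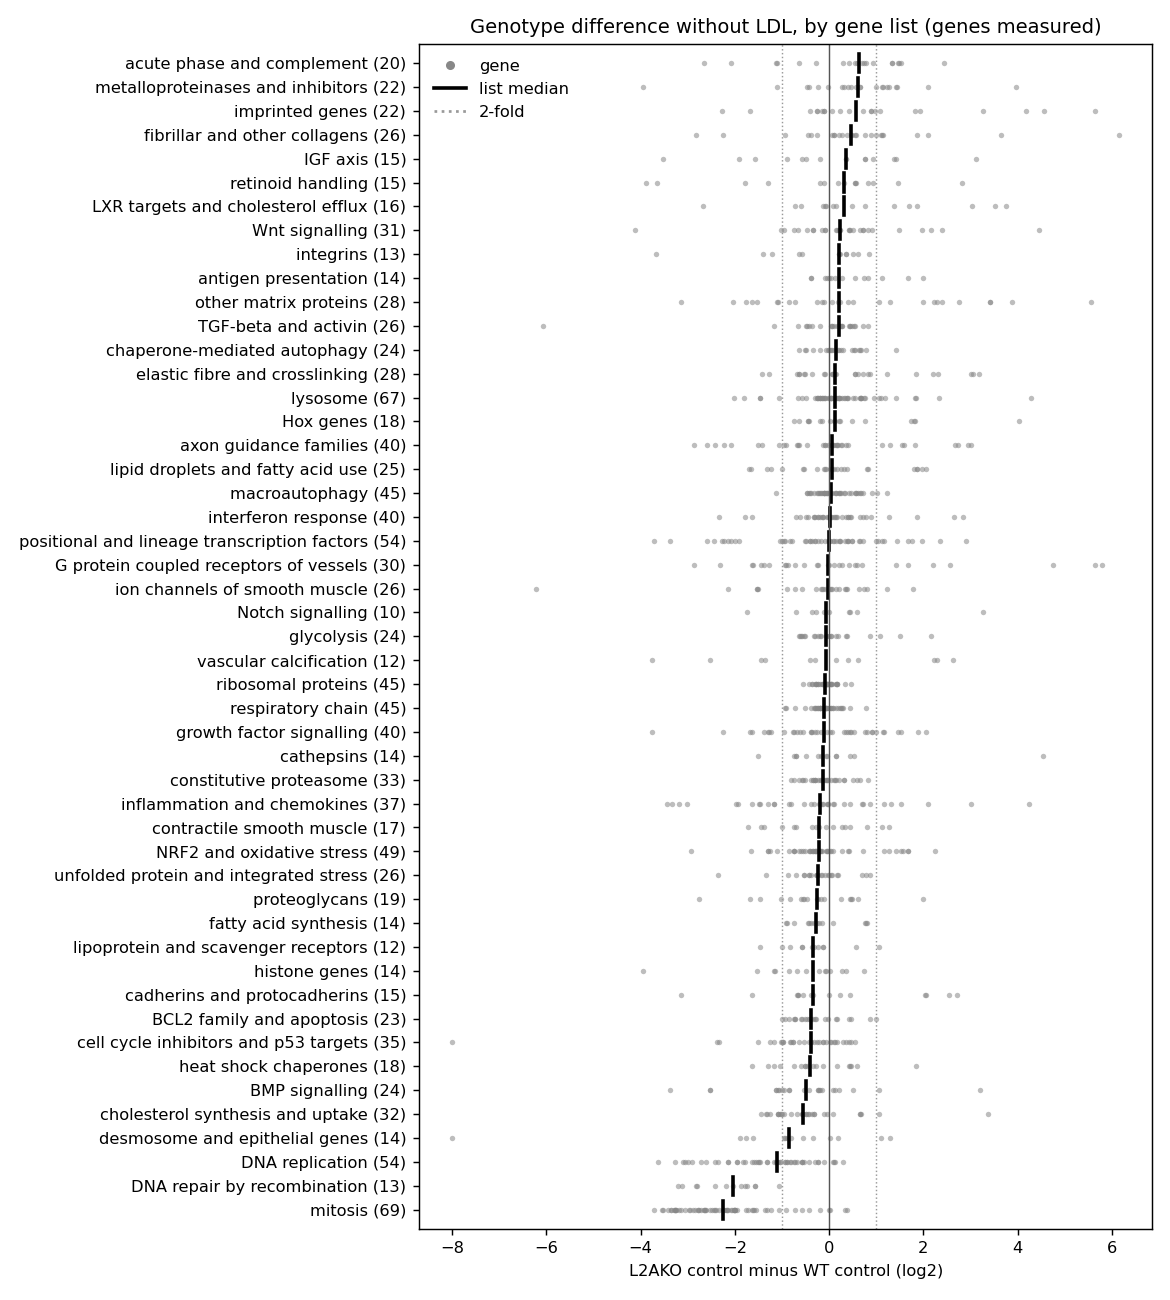
Differences (log2, x axis) of the measured genes of each list with 10 or more measured members, L2AKO control minus WT control, without LDL. Each point is a gene, the bar is the list's median and dotted lines mark 2-fold. The mitosis list had its median at -2.25 with no member at least 2-fold higher, while matrix and positional lists spread to both sides.

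Genes tied to the knockout and to the cell type are given here, without a check of the labels. One Lamp2 probe, with accession NM_001017959, stood at 3.68 and 2.30 (difference -1.38, and -1.32 with LDL). The other, NM_010685, stood at 6.29 and 6.33 (0.04, and -0.29 with LDL). The sources used here do not say which of these transcripts holds the deleted part, so neither probe tests the deletion. Of the smooth muscle markers, 6 of 12 were measured on both arrays, and Myh11, Des and Lmod1, which mark differentiated smooth muscle, were not well above background on either array. Acta2, smooth muscle actin, stood at 7.39 and 6.63 (difference -0.75). Tagln, the actin-binding protein transgelin, stood at 3.62 and 4.89 (1.27), and Cnn1, calponin, at 0.31 and 1.43 (1.11). Actin and smoothelin (Smtn, -1.0) were thus on the lower side in L2AKO and transgelin, calponin and the myosin light chain Myl9 (0.80) on the higher. The summed linear level of the 6 markers, in multiples of the 75th percentile, was 242.4 and 215.3. The linear level of Acta2 alone fell by more than this sum did, and the median difference of the 6 was 0.02. In pooled RNA of this kind, fewer cells of a type and less RNA per cell cannot be told apart.

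Genes of mitosis were lower in L2AKO control as a group. Cells about to divide build a spindle from microtubules, attach chromosomes to it at kinetochores under the control of Cdk1, Plk1 and the Aurora kinases, and split by cytokinesis. Many promoters of such genes carry CCAAT boxes and the letters TTTGAA known as the CHR core, which are bound by NF-Y and by DREAM or B-MYB complexes respectively. Promoter stretches of 3 of these genes are shown because the group lay together on the lower side, with Mcm5 from DNA replication and Hmgcs1 from cholesterol synthesis for comparison. Capitals mark CCAAT or its reverse complement ATTGG and the CHR letters TTTGAA. They also mark in Mcm5 the E2F core TTTGGCGC in its reverse complement GCGCCAAA, and in Hmgcs1 the sterol response letters TCACNCCAC. Each stretch holds the 250 bases before the annotated start, 5′ to 3′ on the gene's strand, from RefSeq on GRCm38.p6. They are Cdk1 at chr10:69352913-69353162 (minus strand), Cdc20 at chr4:118437344-118437593 (minus), Ccnb2 at chr9:70421555-70421804 (minus), Mcm5 at chr8:75109259-75109508 (plus) and Hmgcs1 at chr13:119690101-119690350 (plus).
Cdk1: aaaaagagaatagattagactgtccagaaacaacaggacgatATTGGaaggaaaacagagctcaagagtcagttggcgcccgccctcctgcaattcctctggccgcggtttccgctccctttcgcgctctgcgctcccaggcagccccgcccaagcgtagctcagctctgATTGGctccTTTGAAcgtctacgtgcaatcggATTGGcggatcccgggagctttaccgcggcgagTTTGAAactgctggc
Cdc20: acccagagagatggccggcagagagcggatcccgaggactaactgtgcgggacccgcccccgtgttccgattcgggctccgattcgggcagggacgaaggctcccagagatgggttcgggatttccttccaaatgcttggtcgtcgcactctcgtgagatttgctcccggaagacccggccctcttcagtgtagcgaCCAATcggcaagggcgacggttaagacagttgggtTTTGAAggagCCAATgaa
Ccnb2: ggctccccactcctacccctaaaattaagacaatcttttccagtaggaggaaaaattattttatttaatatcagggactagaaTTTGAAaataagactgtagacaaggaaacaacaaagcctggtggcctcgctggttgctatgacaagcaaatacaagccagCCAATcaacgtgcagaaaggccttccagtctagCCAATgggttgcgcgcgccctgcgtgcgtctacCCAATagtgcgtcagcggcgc
Mcm5: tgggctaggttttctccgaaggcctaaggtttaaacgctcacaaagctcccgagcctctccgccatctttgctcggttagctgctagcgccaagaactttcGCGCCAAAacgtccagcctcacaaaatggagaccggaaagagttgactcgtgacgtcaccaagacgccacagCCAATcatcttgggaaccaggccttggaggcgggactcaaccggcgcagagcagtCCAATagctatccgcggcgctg
Hmgcs1: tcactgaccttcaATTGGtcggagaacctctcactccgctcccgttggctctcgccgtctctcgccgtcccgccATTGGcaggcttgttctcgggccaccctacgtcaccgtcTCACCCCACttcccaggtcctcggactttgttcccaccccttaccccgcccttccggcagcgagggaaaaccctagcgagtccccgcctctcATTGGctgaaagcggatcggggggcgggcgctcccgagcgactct

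In these stretches the CCAAT letters began 208, 80 and 48 bases before the start of Cdk1, and TTTGAA 71 and 15 bases before it. Cdc20 held CCAAT at 53 and 8 bases and TTTGAA at 18, while Ccnb2 held CCAAT at 87, 54 and 21 bases and TTTGAA at 167. Over the mitosis list, 62 genes had 66 such windows, and 42 of them (63.6%) held CCAAT on either strand, against 33.8% of all 32851 windows of the table. TTTGAA or TTCAAA was in 23 (34.8%, against 16.0%) and both motifs in 18 (27.3%, against 5.55%). No match overlapped another in the 5 stretches shown. These are counts of letters, not of bound sites.

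Of 79 listed mitosis genes, 69 were measured, 60 were at least 2-fold lower and none at least 2-fold higher, with a median difference of -2.25. Over all measured genes 8.21% were at least 2-fold lower. Another 5 were well above background on WT control alone. Among the cyclins and kinases 14 of 15 were at least 2-fold lower. Cdk1, the kinase that drives entry into mitosis, stood at 3.21 and 1.05 (-2.16, 4.46-fold lower), and its partner Ccnb2 at 3.77 and 1.76 (-2.01). Aurka, a kinase of the spindle poles, stood at 3.43 and 0.14 (-3.29). Ccna2, the cyclin of S phase and early mitosis, stood at 2.30 and -0.97 (-3.27). The exception in this role was Pkmyt1, a kinase that holds Cdk1 inactive, at 2.96 and 2.39 (-0.57), whereas Wee1, which does the same in the nucleus, differed by -1.76. Aurkb and Ttk were not well above background on either array.

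Motors and microtubule proteins of the spindle were the role with the lowest median, -2.74, and all 16 measured members were at least 2-fold lower. Kif11, the motor that separates the spindle poles, stood at -0.64 and -3.90 (-3.26). Stmn1, stathmin, which destabilises microtubules, stood at 6.67 and 3.60 (-3.07, 8.37-fold lower). Tpx2, an activator of Aurka on the spindle, stood at 1.77 and -1.11 (-2.88). Kif4, a chromosome-bound motor, was well above background on WT control alone at -0.29, at least 17.9-fold lower in L2AKO. Kinetochore and checkpoint genes were less uniform, with 11 of 15 at least 2-fold lower and a median of -2.02. Nuf2 (-3.36), Spc25 (-2.63) and Ndc80 (-2.43) of the microtubule-binding NDC80 complex lay far below 0, and so did the centromere motor Cenpe (-3.15). In the same role Zwint stood at 5.42 and 5.81 (0.38), Ska1 at -1.04 and -1.05 (-0.01) and Dsn1 at 1.81 and 1.38 (-0.44).

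All 5 measured cytokinesis genes were at least 2-fold lower, from Prc1, the bundler of the central spindle, at -3.55 to Cep55 at -1.32. Ect2, which activates the contractile ring, stood at 1.90 and -0.59 (-2.49). The role of condensins, cohesion and mitotic exit had 14 of 18 members at least 2-fold lower. Cdc20, which starts anaphase, stood at 4.37 and 1.52 (-2.85), and Birc5, survivin, at 5.31 and 2.05 (-3.26, 9.56-fold lower). The transcription factors of this programme were lower too, Foxm1 at 0.82 and -1.14 (-1.96) and Mybl2, B-MYB, at 1.84 and -0.18 (-2.02). Of the condensin subunits, Smc2 differed by -2.0, Ncaph by -2.23 and Ncapd2 by -1.71, but Smc4 by 0.01. Securin, Pttg1, stood at 5.16 and 5.50 (0.34), the highest difference of this role. With LDL the mitosis list had 63 of 72 measured members at least 2-fold lower and none higher, with a median of -2.13.

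DNA replication genes were lower as well, by less. Of 54 measured members 32 were at least 2-fold lower and none at least 2-fold higher, with a median of -1.12. Genes of origin licensing and of the helicase differed among themselves. Mcm10 stood at 1.58 and -1.51 (-3.09). Of the helicase subunits, Mcm5 stood at 3.43 and 0.51 (-2.92). Mcm3 differed by -1.95, Mcm2 by -1.48, Mcm4 by -1.32, Mcm7 by -0.93 and Mcm6 by -0.89. Mcm6, at levels of 6.06 and 5.17, and Mcm7 were thus within 2-fold although their proteins form a ring with Mcm2 to Mcm5. Cdc6, which loads that ring, stood at -1.42 and -4.13 (-2.71), near the lowest level well above background on L2AKO control, -4.45. Cdc45 and Orc1 were well above background on WT control alone, at least 2.02-fold and 2.42-fold lower. Gins3 (0.11), Orc6 (0.08) and Gins4 (-0.11) stood near 0.

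Among polymerases and their clamp 10 of 17 were at least 2-fold lower. Pole, the leading-strand polymerase, stood at 2.11 and -0.03 (-2.14), and Pcna, the sliding clamp, at 5.26 and 3.94 (-1.31). The accessory subunits Pole2 (chromosome 12, 0.28) and Rfc3 (0.13) lay slightly above 0. In nucleotide supply, thymidine kinase Tk1 stood at 3.61 and 0.54 (-3.07), but thymidylate synthase Tyms differed by -0.30 and the ribonucleotide reductase subunits Rrm2 (chromosome 12) and Rrm1 by -1.13 and -0.54. Regulators of the G1/S step had a median of -1.67 with 10 of 14 at least 2-fold lower. Of the E2F family E2f8 stood at -0.08 and -3.71 (difference -3.64), and E2f7 (-2.99), E2f2 (-2.62) and E2f1 (-1.05) were lower too. Cyclin E1, Ccne1, stood at 2.20 and 0.70 (-1.50), its kinase Cdk2 at 0.12 and -0.46 (-0.58). Of 58 promoter windows of this list, 6 (10.3%) held the E2F core TTTCCCGC and 4 (6.90%) TTTGGCGC, against 0.895% and 0.417% of all windows, with reverse complements counted.

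All 13 measured genes of repair by homologous recombination were at least 2-fold lower, with a median of -2.04, and 4 more were well above background on WT control alone. Rad51ap1, which acts in strand exchange, stood at 2.07 and -1.13 (-3.20). Exo1, which resects broken ends, stood at 1.28 and -1.84 (-3.12), and the Fanconi genes Fanci, Fanca and Fancb differed by -2.83, -2.43 and -2.19. Brca2 had the smallest difference of the list, -1.06. Brca1 and Chek1 were not well above background on either array. The CCAAT letters were in 9 of 16 windows (56.2%), TTTCCCGC in 2 (12.5%) and TTTGGCGC in 0.

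**Figure D2:**
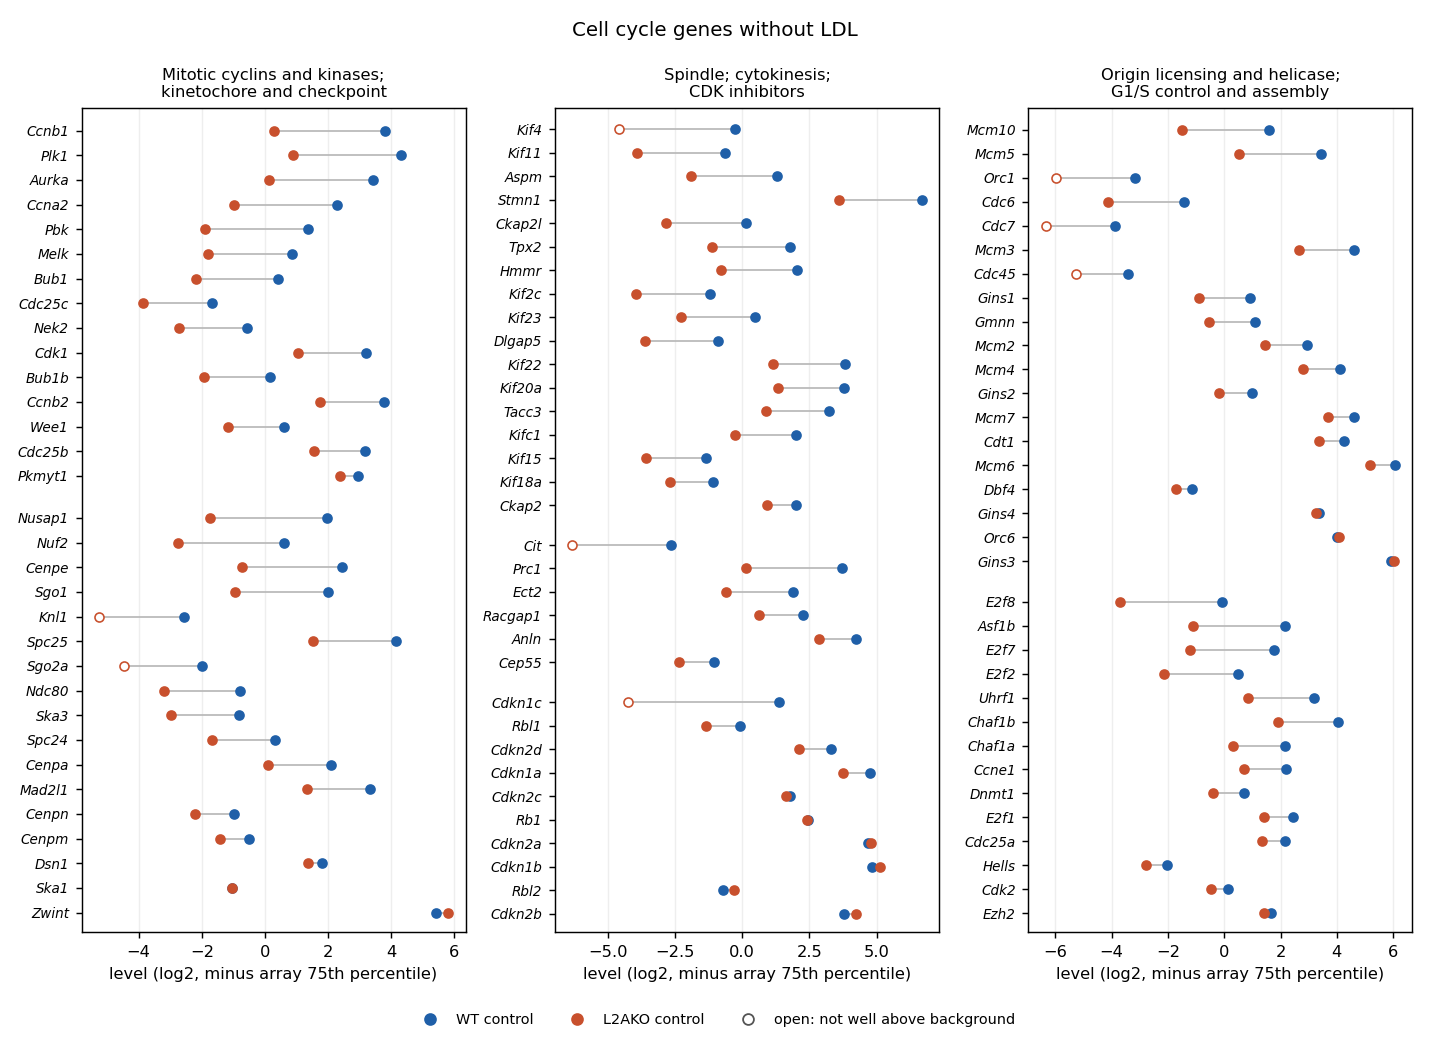
Levels (log2 signal minus the array's 75th percentile, x axis) of cell cycle genes on WT control and L2AKO control, 1 array each, joined per gene. Genes well above background on 1 array only are included, and open symbols mark a level not well above background. The panels show mitotic cyclins and kinases with kinetochore genes, spindle and cytokinesis genes with CDK inhibitors, and origin licensing with G1/S genes. All 16 spindle genes measured on both arrays lie at least 1 unit lower on L2AKO control. The CDK inhibitors Cdkn1b and Cdkn2a differ by 0.29 and 0.10.

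Inhibitors of the cell cycle were not higher beside this. Of 9 measured CDK inhibitors and pocket proteins none was at least 2-fold higher and 2 were lower, with a median of -0.06. Cdkn1a, p21, stood at 4.73 and 3.76 (-0.97), Cdkn1b, p27, at 4.84 and 5.13 (0.29) and Cdkn2a, the p16 and ARF locus, at 4.68 and 4.78 (0.10). Cdkn1c, the imprinted inhibitor p57, was well above background on WT control alone at 1.38, at least 49.9-fold lower in L2AKO. The G1 cyclin D1, Ccnd1, stood at 6.83 and 4.50 (-2.33, 5.05-fold lower), whereas Ccnd2 (-0.25) and Ccnd3 (-0.21) differed little. Of 22 measured genes of p53 and its targets, none was at least 2-fold higher and 4 were at least 2-fold lower, with a median of -0.59. They were Perp, the mitochondrial death gene Pmaip1 (4.64 and 2.27, -2.37), Gdf15 (-1.50) and the p53 ubiquitin ligase Mdm2 (7.10 and 6.08, -1.02). Perp, also a protein of desmosomes, stood at 6.28 and -1.72, 256-fold lower, and had the largest difference of all measured genes. Trp53 itself differed by -0.12.

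The differences were not spread evenly over the chromosomes. Of 416 measured genes of chromosome 12, 169 (40.6%) were at least 2-fold higher in L2AKO control and 10 (2.40%) lower, and 86.5% had a difference above 0, with a median of 0.90. When these genes were ordered along the chromosome and cut into 8 stretches of 52 genes, the median of a stretch lay between 0.72 and 0.97. The X chromosome lay on the other side, with 15 of 395 genes higher, 83 (21.0%) lower and a median of -0.53, its stretches between -0.80 and -0.43. Chromosome 7 had a median of -0.32 (38 of 981 genes higher and 97 lower, stretches between -0.40 and -0.24) and chromosome 18 one of 0.34 (41 of 316 higher, 17 lower). All other chromosome medians lay from -0.24, on chromosome 3, to 0.22, on chromosome 17. With LDL the medians of chromosomes 12, X, 7 and 18 were 0.80, -0.70, -0.35 and 0.27. Without the genes of chromosome 12, 783 of 12178 genes (6.43%) lay 2-fold or more higher and 1024 (8.41%) lower, and without 12 and X, 768 and 941 of 11783. Subtracting from each gene the median of its chromosome, an alternative added after the values were seen, left 821 higher and 950 lower. The part of the chromosome in the difference of any gene was not tested, and chromosome 12 is named below beside genes that lie on it.

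**Figure D3:**
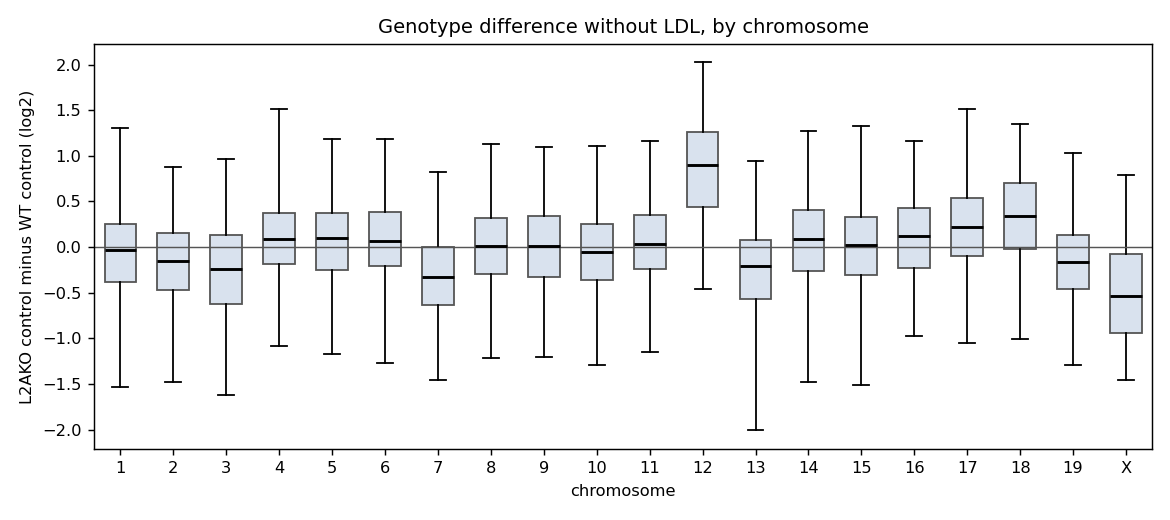
Differences (log2, y axis) of measured genes by chromosome (x axis), L2AKO control minus WT control. Boxes span the quartiles, the line is the median and whiskers reach the 5th and 95th percentiles of the chromosome's genes. The box of chromosome 12 lies wholly above 0, between 0.44 and 1.26 and the median line of X lies at -0.53.

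Imprinted genes are expressed from the copy of 1 parent, and many set growth. The Dlk1-Meg3 region on chromosome 12 held the 2 largest differences among those measured on both arrays, and all 4 of its measured members were at least 2-fold higher, with a median of 3.91. Meg3, its maternally expressed noncoding RNA, stood at 0.94 and 6.57 (5.63, 49.6-fold higher), and Mirg, a noncoding RNA that hosts microRNAs, at -1.08 and 3.48 (4.56). Dlk1, a paternally expressed membrane protein of the Notch ligand type, stood at 1.20 and 4.46 (3.26). These exceeded the chromosome's median of 0.90, as did Begain at the edge of the region with 1.93. Dio3, at the other end and also paternally expressed, was well above background on WT control alone, at -0.28, at least 18-fold lower in L2AKO. The region therefore held members on both sides.

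On chromosome 7, the H19 and Igf2 neighbours were lower together. H19 stood at 4.46 and 2.18 (-2.28), and Igf2, a fetal growth factor, was well above background on WT control alone at 1.81, at least 76.7-fold lower. Cdkn1c, from the adjoining imprinted cluster, has been described above. Grb10, an adaptor that restrains insulin signalling, stood at -3.65 and 0.54 (4.18, 18.2-fold higher). Ndn, necdin, on chromosome 7, differed by 1.83, and Ppp1r9a was at least 34.7-fold lower. Impact differed by 1.08, but by -0.063 as a mean over its probes. Of 22 measured imprinted genes in all, 7 lay 2-fold or more higher and 2, H19 and decorin (Dcn, -1.69), lower, and Snrpn (0.71), Gnas (-0.26) and Sgce (0.06) were within 2-fold.

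The wider IGF axis also differed member by member. Igf1 stood at 1.67 and 2.03 (0.35) and the receptors Igf1r (-0.50) and Igf2r (-0.19) were within 2-fold. Among the binding proteins, which hold IGFs outside cells, Igfbp3 stood at 0.45 and 3.57 (3.12) and Igfbp6 at 3.56 and 4.97 (1.41). In the opposite direction Igfbp2 stood at 3.27 and -0.25 (-3.52), Igfbp4 at 1.07 and -0.85 (-1.92), and Igfbp5 was at least 10.6-fold lower. The intracellular adaptors Irs1 (0.76) and Irs2 (0.92) were within 2-fold.

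Hox genes, which record position along the body axis, differed among members of a cluster as well as between clusters. In cluster A, none of 7 measured genes reached 2-fold in either direction, from Hoxa5 at -0.46 to Hoxa7 at 0.49. Cluster B held 2 of 8 measured genes at least 2-fold higher, Hoxb7 at 2.07 and 3.89 (1.82) and Hoxb8 at -1.95 and -0.15 (1.81). Hoxc6 stood at -1.12 and 2.92 (4.04, 16.4-fold higher) and Hoxc4 at -2.49 and -0.76 (1.73), and Hoxc8 was well above background on L2AKO control alone, at least 2.82-fold higher. No gene of cluster D was measured on both arrays, and 4 were well above background on WT control alone. Of these Hoxd8 stood at 1.01 there, at least 43.9-fold lower in L2AKO, and Hoxd4 at -1.04, at least 10.67-fold lower. Hoxa10 likewise was at least 8.89-fold lower. Hoxa2 to Hoxa5 and Hoxb2 to Hoxb6, at the anterior end of their clusters, were thus within 2-fold, and so were Hoxb9 (0.76) and Hoxc9 (-0.74). With LDL the counts were the same for clusters A, B and C, 0 of 7, 2 of 8 and 2 of 3 at least 2-fold higher and none lower, and no gene of cluster D was measured on both arrays.

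Other transcription factors that mark position or lineage gave some of the largest bounds. Irx1, of the Iroquois family, was well above background on WT control alone at 3.90, at least 327-fold lower in L2AKO, Irx3 was at least 19.7-fold lower, and Irx5 and Irx2 differed by -2.28 and -2.24. All 4 listed Iroquois genes were thus lower in L2AKO. Ebf3, an early B-cell factor also expressed in mesenchyme, was well above background on L2AKO control alone at 2.54, and its relative Ebf1 there was at least 2.74-fold higher. Hand2, a bHLH factor of the heart and of neural crest derivatives, was at least 10.69-fold lower, and Gata4 at least 4.51-fold lower. Tbx1, a factor of the pharyngeal arches and outflow tract, was at least 6.75-fold higher, and Tbx3 stood at -1.77 and 0.58 (2.36).

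Forkhead and paired factors went to both sides. Foxc2, which shapes aortic arch and lymphatic vessels, stood at -0.62 and 2.29 (2.91, 7.51-fold higher), while Foxf1 stood at 4.13 and 1.68 (-2.45), Foxf2 at 2.82 and 0.74 (-2.08) and Foxd1 at 0.01 and -3.36 (-3.37). Pax3, a neural crest and somite gene, stood at -0.40 and -4.11 (-3.71), and Prrx2 at 5.28 and 2.69 (-2.59) whereas its relative Prrx1 was higher by 1.04. Meis1, a Hox cofactor, stood at 3.97 and 5.63 (1.67). Twist1 (1.76) lies on chromosome 12, and with the chromosome's median subtracted it stood at 0.86. Among the 54 measured factors 10 lay 2-fold or more higher and 12 as far lower, 7 more were seen on L2AKO control alone and 9 on WT control alone. Gata6 (0.41) and Zeb1 (0.15) were within 2-fold.

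Scx, scleraxis, the transcription factor of tendon cells, was outside these lists, was named as 1 of the 15 lowest genes, and stood at 4.54 and -1.41 (-5.95, 61.9-fold lower). Mkx, another factor of tendon development, was well above background on L2AKO control alone at 0.25, at least 22.4-fold higher.

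**Figure D4:**
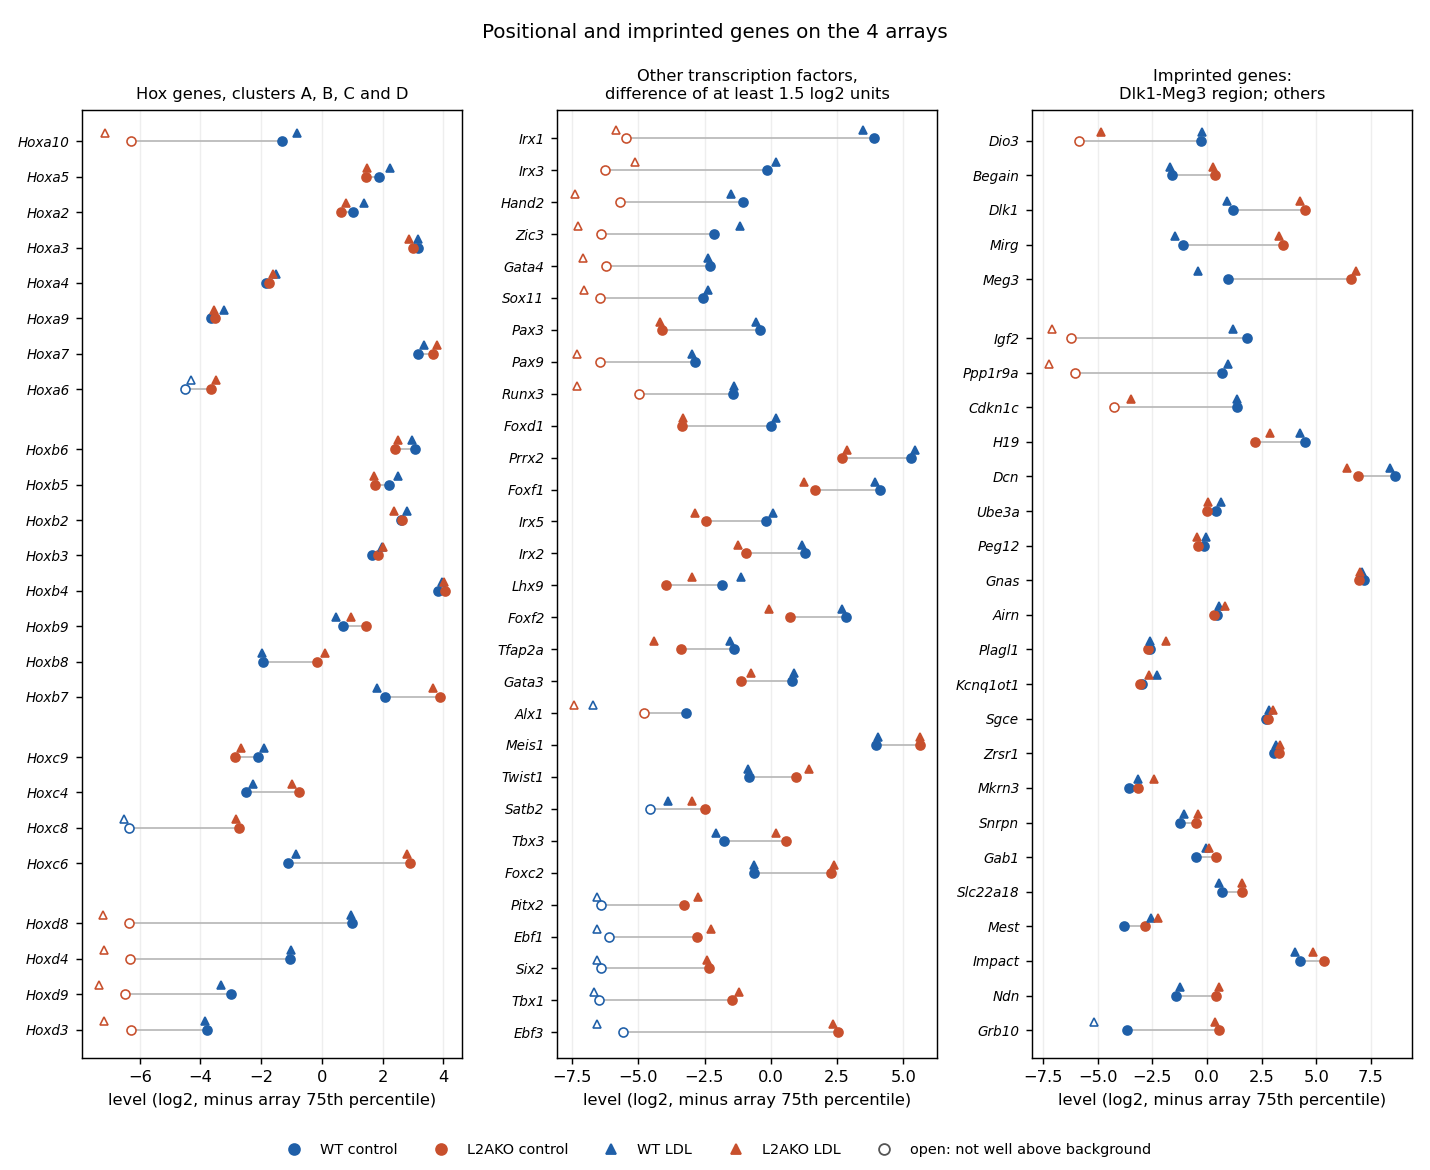
Levels (log2 signal minus the array's 75th percentile, x axis) of Hox genes, of other transcription factors with a difference of at least 1.5 log2 units and of imprinted genes on the 4 arrays. Colours mark genotype, circles the control arrays and triangles the LDL arrays, and open symbols a level not well above background. For Hoxc6 both WT arrays lie below -0.8 and both L2AKO arrays above 2.8, and the WT and L2AKO arrays are likewise apart for Irx1 and Meg3 (0.94 and 6.57 on the control arrays).

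Matrix genes differed in both directions, with a larger share higher. Fibrillar collagens give the vessel wall tensile strength, and 4 of 9 measured ones lay 2-fold or more higher and none lower. Col3a1, type III collagen, stood at 0.76 and 6.91, 71.1-fold higher, and Col11a1 at -0.38 and 1.48 (1.87). Col1a1 (6.66 and 6.76, 0.10) and Col1a2 (8.18 and 8.64, 0.46), the chains of type I collagen, were within 2-fold. Basement membrane collagens were all within 2-fold, with a median of -0.02 over 6. Of the remaining types, Col8a1, a network collagen of injured arteries, stood at -0.27 and 3.39 (3.66), while Col12a1 stood at 1.33 and -1.50 (-2.82) and Col6a3 at 1.04 and -1.22 (-2.26). Col6a1 and Col6a2, whose products join Col6a3 in type VI collagen, differed by 0.39 and 0.56.

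In elastic fibre assembly, several microfibril-associated proteins were higher and elastin itself was not seen. Mfap2 stood at -2.99 and 0.19 (3.18), Mfap4 at -3.80 and -0.75 (3.05), and Fbln5, a fibulin needed for elastic fibres and encoded on chromosome 12, at 5.03 and 7.23 (2.20). Eln was not well above background on either array, Fbn1, fibrillin-1, differed by -0.09, and Fbln1 by -1.27. Among crosslinking enzymes, Lox stood at 3.22 and 5.07 (1.85), Loxl1 at 1.18 and 4.19 (3.01) and the lysyl hydroxylase Plod2 at 1.41 and 3.71 (2.31), while Loxl4 stood at 1.86 and 0.44 (-1.42). Of 28 measured members 7 lay 2-fold or more higher and 2 lower.

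Laminins differed by chain. Lama2 stood at -1.37 and 2.03 (3.41), Lama4 at 0.90 and 3.65 (2.75) and Lamb1, on chromosome 12, at 5.28 and 7.28 (2.0), whereas Lama1 stood at 1.14 and -2.0 (-3.14). Lamc1, common to most laminins, differed by 0.19. The laminin-binding nidogens Nid2 (0.26 and 4.14, 3.88) and Nid1 (5.26 and 6.56, 1.30) were higher. Itga6, a laminin receptor chain, stood at 3.28 and -0.39 (-3.67, 12.8-fold lower). The thrombospondins opposed each other, with Thbs2 at 1.04 and 4.44 (3.41) and Thbs1 at 7.64 and 5.59 (-2.05). So did the matricellular CCN genes, where Ccn3 stood at -1.99 and 3.57 (5.56), Ccn1 at 5.73 and 4.09 (-1.63) and Ccn2 at 5.47 and 5.53 (0.06). Mgp, which restrains vessel calcification, stood at 4.72 and 6.95 (2.23), and Postn, periostin, was at least 8.69-fold higher. Fn1 (0.22) and Sparc (-0.11) were within 2-fold.

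Matrix-degrading enzymes and their inhibitors lay more often on the higher side, with 16 of 22 measured members above 0, 6 below and a median of 0.62. Mmp2, gelatinase A, stood at 4.89 and 0.95 (-3.94) and its activator Mmp14 at 1.56 and 2.68 (1.12). Mmp23 stood at 0.99 and 4.94 (3.96, 15.5-fold higher), Adamts5, an aggrecanase, at -1.14 and 0.96 (2.11), and Mmp8 was at least 7.01-fold higher. The inhibitors Timp1 (0.28), Timp2 (-0.23) and Timp3 (-0.43) were within 2-fold, and the membrane inhibitor Reck stood at -1.34 and 0.10 (1.44). In all, 8 of 22 measured members lay 2-fold or more higher and 2 lower, against 7.56% and 8.21% of all measured genes. The cathepsin list had 1 of 14 members higher, Ctsk, and 1 lower, Ctsc (-1.27 and -2.78, -1.51). Among proteoglycans, which can bind LDL in the vessel wall, 1 of 19 was at least 2-fold higher and 4 lower. Decorin, Dcn, stood at 8.60 and 6.92 (-1.69), lumican, Lum, at 0.80 and -0.23 (-1.03) and Cspg4 (NG2) at -0.35 and -3.10 (-2.75), whereas biglycan, Bgn, differed by 0.25, versican, Vcan, by 0.48 and perlecan, Hspg2, by 0.47. Has1, a hyaluronan synthase, was at least 11.9-fold higher.

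Markers of adventitial fibroblasts, which also make matrix, lay on both sides beside these lists. Of 14 measured markers 4 lay 2-fold or more higher and 3 lower, with a median of -0.26 and a summed linear level of 786.8 and 555.9. Bright members weigh most in such a sum, and the linear level of Dcn alone fell by more than the sum did. Serpinf1 (2.70 and 6.98) and Pi16 (-2.10 and 2.04) were on the higher side and Dcn, Lum and Fbln1 on the lower, and Pdgfra stood at 3.36 and 2.75 (-0.61). Their part in the matrix differences was not tested.

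**Figure D5:**
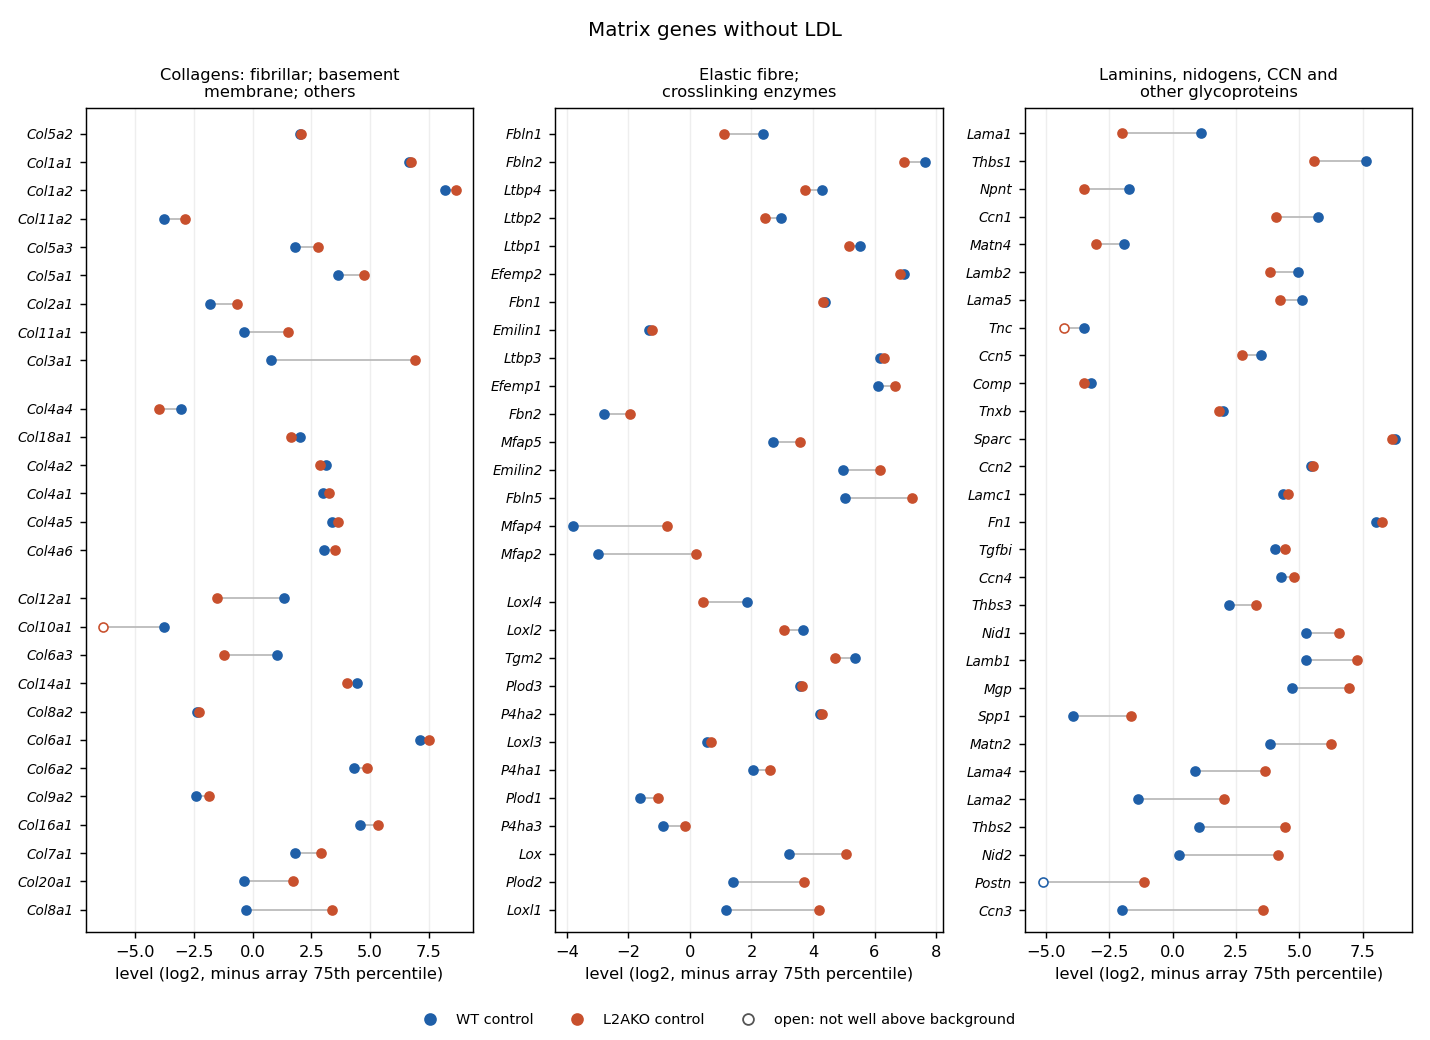
Levels (log2 signal minus the array's 75th percentile, x axis) of matrix genes on WT control and L2AKO control, 1 array each, joined per gene. Genes well above background on 1 array only are included, and open symbols mark a level not well above background. The panels show collagens, elastic fibre and crosslinking genes, and other glycoproteins. Col3a1, at 0.76 and 6.91, has the longest line of the collagens, and Col1a1 and Col1a2 lie nearly together.

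Adhesion between cells differed in several cadherins. Cdh13, T-cadherin, which binds LDL and adiponectin, was well above background on WT control alone at 2.99, at least 173-fold lower in L2AKO. Cdh2, N-cadherin, stood at 4.99 and 7.04 (2.06) and Cdh3, P-cadherin, at 0.99 and 3.70 (2.71), against Cdh1, E-cadherin, at 1.38 and -1.76 (-3.14). Cdh11, the cadherin of mesenchyme, differed by -0.35. Desmosomal and epithelial genes had 4 of 14 measured members at least 2-fold lower and 2 higher, with a median of -0.85. Pkp1, plakophilin-1, was at least 67.5-fold lower, and the keratins Krt18 (1.58 and -0.32, -1.90) and Krt19 (4.88 and 3.26, -1.62) were lower. F11r (1.11) and Cldn7 (1.28) were higher. Mesothelial and epithelial markers, which share Cdh1 and keratins with this list, had 4 of 7 measured members lower and 2 higher and a summed level of 63.7 and 19.7, with Msln at 4.74 and 2.43 and Upk3b at -0.45 and 0.72. Their part in the result was not tested. Among further integrin chains Itga11 differed by -1.40, Itga10 by -1.21, and Itgb1, the chain most integrins share, by 0.36. Itga8, an integrin of smooth muscle, was at least 3.85-fold lower.

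The TGF-beta pathway, which induces matrix and contractile genes, had none of 26 measured members at least 2-fold higher and 2 lower. No measured receptor reached 2-fold, from Acvr1 at 0.06 to Tgfbr3 at 0.73, and the signal carriers Smad2 (0.16), Smad3 (0.25) and Smad4 (0.48) were within 2-fold. Of the ligands, Tgfb3 stood at 4.88 and 3.71 (-1.18) although it lies on chromosome 12, Tgfb2 differed by -0.42, and Gdf10 was at least 8.15-fold lower while Gdf6 was at least 9.35-fold higher. Fst, follistatin, which binds activins, stood at 4.15 and -1.92, 67.5-fold lower. The activin subunits Inhba (-0.48) and Inhbb (0.52) were within 2-fold. Serpine2, a protease inhibitor outside the list, stood at 2.24 and -2.38 (-4.62, 24.6-fold lower).

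Targets of BMP signalling were lower as a group, with 6 of 8 measured members at least 2-fold lower, none higher and a median of -1.11. Of all measured genes 8.21% were at least 2-fold lower. Id1, an inhibitor of bHLH factors, stood at 6.13 and 3.60 (-2.53), Id3 at 4.88 and 3.80 (-1.08) and Id2, on chromosome 12, at 3.40 and 2.35 (-1.06). The homeobox targets Msx1 (0.36 and -3.02, -3.38) and Msx2 (-0.48 and -3.0, -2.52) were lower too, and Dlx5 was at least 7.29-fold lower. The inhibitory Smad6 differed by -1.13. Of the ligands Bmp4 stood at 6.19 and 5.23 (-0.96) and Bmp2 was at least 2.83-fold lower, while Bmp6 was at least 3.26-fold higher. Receptors and carriers were within 2-fold apart from Acvrl1 (ALK1), at -1.38 and 1.81 (3.19), and the antagonist Grem1 differed by -0.99. The median of the target role with LDL was -1.42 over 7 members.

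The largest differences among Wnt genes were in ligands and secreted modulators. Wnt4, at 1.68 on WT control, was at least 70.0-fold lower, Wnt10a stood at 0.65 and -3.47 (-4.12) and Wnt6 was at least 8.85-fold lower, whereas Wnt10b stood at -3.01 and -1.52 (1.48). The secreted antagonists Sfrp2, at 4.41 on WT control, Sfrp4 (at least 9.21-fold) and Dkk2 (at least 3.16-fold) were lower, and Sfrp1 stood at -1.55 and 0.41 (1.96). Rspo3, an R-spondin that strengthens Wnt signals, stood at -1.10 and 3.35 (4.46, 22.0-fold higher), and the receptor Fzd1 at 1.96 and 4.36 (2.40). The feedback gene Nkd1 stood at 0.66 and 2.82 (2.15), but Nkd2 (0.22), Ccn4 (0.51) and Znrf3 (-0.65) were within 2-fold. Of 31 measured Wnt genes 5 lay 2-fold or more higher and 2 lower, and 5 more were seen on WT control alone.

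In Notch signalling, the receptors Notch2 (-0.12) and Notch3 (0.42) were within 2-fold, while the ligands Dll1 and Jag2 (chromosome 12) were at least 3.26-fold and 3.04-fold lower and Jag1 stood at 2.16 and 1.46 (-0.70). Of the Hedgehog genes the coreceptors Gas1 (-0.41 and 1.76, 2.17) and Boc (-0.41 and 1.17, 1.59) were higher, with Smo (-0.36) and Gli3 (0.01) near their WT levels. Growth factor genes went to both sides, 6 of 40 higher and 8 lower. Gas6, a ligand of Axl, stood at 5.97 and 2.21 (-3.76, 13.6-fold lower), with Axl itself at 0.06. Nrg1, neuregulin-1, stood at 5.36 and 3.12 (-2.25) and Gdnf was at least 31.0-fold lower, while Hgf was at least 4.65-fold higher. Ntrk3, the receptor of neurotrophin-3, was at least 47.3-fold lower.

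Receptors of the platelet-derived growth factors, the classical mitogens of smooth muscle, were within 2-fold, Pdgfrb at 4.54 and 4.94 (0.40) and Pdgfra at -0.61, and the ligand Pdgfb stood at -0.09 and -1.73 (-1.64). Egfr stood at 4.28 and 5.41 (1.13) and its ligand Hbegf at 2.17 and 0.78 (-1.39). Dusp6, a phosphatase induced by ERK signalling, differed by -1.28. Vegfc stood at 2.45 and 3.98 (1.53) and Flt1, a receptor of VEGF-A, was at least 25.6-fold higher.

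Enzymes that make and degrade retinoic acid differed one by one. Aldh1a2, which makes it, stood at 2.87 and -0.77 (-3.65) and Aldh1a1 at 5.88 and 4.59 (-1.29), and Cyp26b1, which degrades it, at 2.73 and -1.16 (-3.89, 14.8-fold lower). Aldh1a3, which also makes it, differed by 0.82, and Rdh10, which makes retinal, by 0.18. Dhrs3, which turns retinal back into retinol, stood at 3.40 and 6.21 (2.81). The receptors Rara (0.55), Rarg (0.56) and Rxra (0.32) were within 2-fold and Rarb stood at -3.06 and -1.60 (1.46). Of 15 measured retinoid genes 2 lay 2-fold or more higher and 4 lower.

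Guidance molecules, which steer axons and vessel sprouts, also divided within families. Of 18 measured semaphorins and plexins 7 lay 2-fold or more higher and 5 lower. Sema5a stood at 1.14 and 4.15 (3.01), Sema3e at -2.37 and 0.59 (2.96) and Sema3d at -2.39 and 0.34 (2.73), against Sema3f at 4.95 and 2.08 (-2.88) and Sema3c at 5.58 and 3.17 (-2.42). Sema4d was at least 9.88-fold lower. Class 3 semaphorins thus lay on both sides, and their receptor chains did too, with Nrp1 at 1.17 and Nrp2 at -1.68. Slit2 (0.40 and 3.06, 2.66) and Slit3 (0.24 and 2.05, 1.81) were higher and their receptor Robo1 stood at -0.85 and -2.93 (-2.08). The ephrin Efna1 stood at 2.64 and 0.05 (-2.59) and netrin-1, Ntn1, was at least 5.06-fold lower.

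Several receptors of vasoactive signals were among the most different genes. Adora2b, an adenosine receptor, stood at -2.14 and 3.65 (55.5-fold higher), Adcyap1r1, the PACAP receptor, at -3.61 and 2.03 (5.64) and S1pr3, a sphingosine-1-phosphate receptor, at -1.20 and 3.55 (4.76, 27.0-fold). S1pr1 went the other way, at -1.31 and -3.61 (-2.31), and S1pr2 differed by 0.20. Ednra, the endothelin receptor of smooth muscle, stood at -2.93 and -0.73 (2.20) and Tbxa2r, the thromboxane receptor, at -1.51 and 1.05 (2.56). Lpar4, a lysophosphatidic acid receptor, stood at -3.63 and -1.97 (1.66). The angiotensin receptor Agtr1a was at least 3.71-fold lower, Adra1d stood at -1.37 and -2.65 (-1.28) and Ramp3, a partner of the adrenomedullin receptor, at 1.84 and -1.02 (-2.86). Rgs4, which shortens G protein signals, stood at 1.51 and -3.07 (-4.58, 23.9-fold lower), and Rgs5 at 1.21 and -1.51 (-2.72). Of 30 measured receptors and partners, 7 lay 2-fold or more higher and 7 lower, against 7.56% and 8.21% of all measured genes.

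Among ion channels and transporters, Slc24a3, a sodium, calcium and potassium exchanger, stood at 3.20 and -3.01, and the L-type calcium channel Cacna1c at 3.62 and 2.08 (-1.54), while the T-type channel Cacna1g stood at -0.98 and 0.79 (1.77). The calcium-activated chloride channel Ano1 stood at 4.29 and 2.14 (-2.15). Kcnmb4, a subunit of calcium-activated potassium channels, was at least 6.34-fold lower. The stretch-activated Piezo1 differed by 0.63, and Piezo2 was at least 4.24-fold higher. Of 26 measured members 2 lay 2-fold or more higher and 5 lower.

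Regulators of the contractile programme stayed within 2-fold. Srf differed by -0.27, its coactivators Mrtfa and Mrtfb by -0.37 and -0.08, and Klf4 by 0.08, while Myocd was not well above background on either array. Of 12 measured filament genes 2 were at least 2-fold higher, Tagln and Cnn1, and 3 lower, among them Actg2 (-1.75 and -3.48) and Ppp1r14a (-1.39). Synm, synemin, was at least 4.41-fold lower, and Synpo2 at least 3.85-fold and Aoc3 at least 3.97-fold higher. Pericyte markers had no member at least 2-fold higher of 7 measured and 2 lower, Rgs5 and Cspg4.

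Genes of cholesterol synthesis were lower in L2AKO, with both lines kept without lipoproteins. In the mevalonate arm 4 of 9 were at least 2-fold lower and none higher, with a median of -0.95. Hmgcs1, which makes HMG-CoA, stood at 6.41 and 5.17 (-1.25), Pmvk at 4.99 and 3.91 (-1.08) and Idi1 at 5.42 and 4.42 (-1.0). Mvk (-0.42) and Mvd (-0.48) lay on the same side within 2-fold. From squalene to cholesterol 5 of 12 were at least 2-fold lower and none higher. Cyp51 stood at 1.71 and 0.69 (-1.03) and Ebp at 6.42 and 5.33 (-1.08). Ebp lies on the X chromosome and stood at -0.55 with that chromosome's median subtracted. All 21 measured synthesis genes had differences below 0.

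Sensors and uptake genes were mixed. Insig1, which holds the SREBP precursor in the endoplasmic reticulum, stood at 1.52 and 0.44 (-1.09). Srebf2, the main sterol-responsive factor, differed by -0.55 and its escort Scap by 0.66. In the other direction Npc1, which moves cholesterol out of lysosomes, stood at -0.41 and 0.64 (1.05). In the Hmgcs1 promoter shown above the letters TCACNCCAC began 137 bases before the start, beside CCAAT at 237, 176 and 45 bases. They were in 1 of 31 windows of the list (3.23%, against 1.05% of all), and CCAAT in 22 (71.0%, against 33.8%).

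Several oxysterol and efflux genes were higher. The LXR-alpha gene Nr1h3 stood at 1.33 and 2.71 (1.37) while Nr1h2, LXR-beta, differed by -0.07. Cyp7b1, which hydroxylates oxysterols, stood at -1.27 and 2.26 (3.53, 11.5-fold higher), Ch25h, which makes 25-hydroxycholesterol, at -2.50 and 1.25, Apoe at 0.95 and 4.0 and Smpdl3a at 0.89 and 2.58 (1.69). Osbpl3, an oxysterol-binding protein relative, was the member at least 2-fold lower, at 2.96 and 0.30 (-2.67), and Abcg1 was not well above background on either array. Of the 16 measured genes 6 were at least 2-fold higher, against 7.56% of all measured genes. Among lipoprotein receptors Lrp1 stood at 4.80 and 5.86 (1.05), the oxidised LDL receptor Olr1 was at least 3.80-fold higher and Lrp8 at least 4.25-fold lower.

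None of 14 measured genes of fatty acid synthesis reached 2-fold, from Elovl6 at -0.91 to Fads1 at 0.80, with Fasn at -0.16. In lipid droplets and fatty acid use 5 of 25 measured genes lay 2-fold or more higher and 4 lower, with a median of 0.056. Pparg stood at 1.76 and 3.62 (1.86), Angptl4, an inhibitor of lipoprotein lipase, at 4.93 and 6.99 (2.06), Fabp4 at 0.30 and 2.17 (1.87) and the lipase Mgll at 1.67 and 3.64 (1.97). The droplet coats Plin2 (0.31), Plin3 (0.09) and Plin4 (0.06) were within 2-fold, and Dgat2, which makes triglyceride, stood at 0.79 and -0.92 (-1.71). Fitm2 (-1.66), Cpt1b (-1.33) and Fabp5 (-1.24) were the other lower members. Adipocyte markers had 3 of 4 measured members higher, Pparg and Fabp4 among them, and a summed level of 5.50 and 17.8, while Adipoq, Plin1, Lep and Cidec were not well above background on either array. Their part in the result was not tested.

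Genes of the autophagy pathways differed little as groups. Of 24 measured genes of chaperone-mediated autophagy 1 was at least 2-fold higher and none lower, with a median of 0.14. That gene was Phlpp1, a phosphatase that counters Akt at the lysosome, at -1.41 and 0.00 (1.42). The 3 probes of Hspa8 differed by 0.00, 0.02 and 0.56, the brightest standing at 7.83 and 7.83. Lamp1 stood at 8.25 and 8.22 (-0.02), and Hsp90aa1 and Akt1, both on chromosome 12, differed by 0.79 and 0.66. In macroautophagy 2 of 45 were higher, Atg2b (chromosome 12, 1.23) and Atg10 (1.01), and 1 lower, Map1lc3a at 3.89 and 2.76 (-1.13). The cargo receptor Sqstm1, p62, stood at 4.68 and 5.26 (0.58), and Map1lc3b (-0.02), Ulk1 (-0.12), Atg5 (-0.23) and Atg7 (0.15) lay near 0. The lysosomal regulators Tfeb (-0.08) and Tfe3 (-0.38) were within 2-fold.

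Of 67 measured lysosome genes 8 lay 2-fold or more higher and 5 lower, with a median of 0.12. Over all measured genes the shares were 7.56% and 8.21%. Acp5, tartrate-resistant acid phosphatase, stood at 0.90 and 5.17 (4.28, 19.4-fold higher), Abcb9 at -2.03 and 0.29 (2.32) and Laptm4b at 2.07 and 3.49 (1.43). The higher genes Galc (1.82), Lgmn (1.19) and Laptm4a (1.10) lie on chromosome 12 and stood at 0.92, 0.29 and 0.20 with its median subtracted. Cln3, a membrane protein mutated in Batten disease, stood at 1.48 and -0.53 (-2.01), Hyal1 at 0.55 and -1.26 (-1.81) and the ganglioside activator Gm2a at 2.62 and 1.16 (-1.46). Of 7 measured macrophage markers 2, Cd68 (-0.66 and 1.20) and Trem2 (-3.79 and -0.39), were at least 2-fold higher. Lgals3 (7.81 and 6.34) was the 1 lower by as much, and the median was -0.02. The summed level of these markers was 261.8 and 116.6, most of it from Lgals3 on both arrays. Adgre1 and Ptprc, which define macrophages and leukocytes, were not well above background on either array, and the part of these markers in the lysosome list was not tested. None of 33 measured proteasome genes reached 2-fold, with a median of -0.13.

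Stress genes went to both sides in the heat shock and oxidative stress lists, but not in the unfolded protein list. In the unfolded protein and integrated stress list none of 26 was at least 2-fold higher and 2 were lower, Atf3 (0.55 and -1.81, -2.36) and Chac1 (2.46 and 1.12, -1.34), while the chaperone Hspa5, BiP, differed by -0.25. Of 18 measured heat shock chaperones 1 was at least 2-fold higher and 4 were lower, with 12 below 0 and a median of -0.41. The higher member was Hspb1 at 4.67 and 6.52 (1.85), and the lowest was Hspa1a at -0.92 and -2.55 (-1.63). Sod3, the superoxide dismutase of the vessel matrix, stood at 4.69 and 1.75 (-2.93, 7.65-fold lower), mitochondrial Sod2 at 5.42 and 6.59 (1.17) and Sod1 at -0.17. The glutathione transferases divided, with Gstt2 at -2.97 and -0.72 (2.25) and Gsta4 at -1.18 and 0.50 (1.68) against Gstm6 at -0.83 and -2.48 (-1.65) and Gstt1 at 5.06 and 3.81 (-1.25). These families have close copies whose probes may share signal. Of 49 measured oxidative stress genes 8 lay 2-fold or more higher and 6 lower. The NRF2 targets Nqo1 (-0.04), Hmox1 (0.08) and Srxn1 (-0.03) lay near 0.

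Inflammatory genes had 12 of 37 measured members at least 2-fold lower and 6 higher. Over all measured genes 8.21% were lower and 7.56% higher by this much. The neutrophil-attracting chemokines were lower, Cxcl5 at 3.28 and -0.06, Cxcl15 at 3.29 and -0.14 (-3.43) and Cxcl1 at 5.41 and 4.25 (-1.17), with Ccl9 at 0.73 and -2.47 (-3.20) and Ccl5 at 2.61 and 0.96 (-1.65). The monocyte chemokines Ccl7 (5.57 and 6.73, 1.17) and Ccl8 (-2.34 and 0.67) were higher and Ccl2 differed by 0.44. Il33 (2.39 and 0.45, -1.93) and Il18 (2.80 and 0.82, -1.97), cytokines of the IL-1 family, were lower, as was Csf1 (6.17 and 4.87, -1.30). The cyclooxygenases opposed each other, Ptgs1 at 3.96 and 5.49 (1.53) and Ptgs2 at 1.46 and -1.55. Tnfaip2, on chromosome 12, stood at -0.80 and 3.44 (4.24, 18.9-fold higher), while Nfkb1 (-0.32), Rela (-0.20) and Tnfaip3 (-0.02) were within 2-fold.

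Acute phase and complement genes had 6 of 20 members at least 2-fold higher and 4 lower, with a median of 0.64. Saa3 stood at 5.93 and 7.42 (1.49), Steap4 at -1.47 and 0.96 (2.43), C1s1 at 5.72 and 7.18 (1.46) and Cfb at 0.10 and 1.43 (1.33), against Lcn2 at 3.06 and 0.97 (-2.09) and Saa2 at -1.46 and -4.11 (-2.65). The Saa genes are close copies whose probes may share signal. C3, the central component, was bright on both arrays at 8.59 and 9.15 (0.55). Interferon genes had 4 of 40 members higher and 3 lower, near the 7.56% and 8.21% of all measured genes. Their median was 0.02, whereas with LDL that median was 0.90. Without LDL the 2'-5' oligoadenylate synthetases Oas1a (0.48 and 3.31) and Oas2 (-2.30 and 0.34, 2.64) and the GTPase Gbp2 (1.42 and 3.28, 1.85) were higher, while Isg15 (-0.15), Ifit1 (0.28) and Irf7 (-0.03) were within 2-fold, and the DNA sensor Cgas stood at 1.40 and -0.24 (-1.64). In antigen presentation the immunoproteasome subunits Psmb8 (-0.87 and 1.13, 2.0) and Psmb9 (0.29 and 1.95, 1.67) were higher, and the class I chains H2-K1 (-0.04) and B2m (0.03) near their WT levels. Casp1, the inflammatory caspase, was well above background on L2AKO control alone at 1.61, at least 51.1-fold higher.

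Housekeeping groups differed little. None of 45 measured ribosomal protein genes and none of 45 respiratory chain genes reached 2-fold in either direction, with medians of -0.08 and -0.11. The lowest respiratory differences were Ndufa1 (-0.94) and Cox7b (-0.93), both on the X chromosome. Glycolysis had 3 of 24 genes at least 2-fold higher, the lactate exporter Slc16a3 at 1.04 and 3.21 (2.16), the glucose transporter Slc2a3 at -3.28 and -1.78 (1.51) and Aldoc at 3.18 and 4.26 (1.08), and none lower. Of 23 measured BCL2 family and caspase genes none was at least 2-fold higher and 1 was lower. Markers of endothelium, lymphocytes and striated muscle were dim, with summed levels of 9.75 and 11.8, 3.53 and 4.15, and 5.17 and 3.84, and Cdh5 was not well above background on either array.

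Outside the lists, the highest differences included Fibin, a secreted factor of fin and limb buds, at -2.24 and 3.28 (5.52, 46.0-fold), and Tro, trophinin, on the X chromosome, at -3.83 and 1.30 (5.13). Cracdl stood at -2.71 and 2.20 (4.91) the ubiquitin ligase Rnf144a, on chromosome 12, at -2.77 and 1.82 (4.58), and Cryzl2 at -3.93 and 0.51 (4.44). Fap, fibroblast activation protein, a protease of activated stromal cells, was well above background on L2AKO control alone at 0.22, at least 21.9-fold higher, as was the matrix protein Hmcn1 (at least 25.1-fold). The largest such bounds also included Olfr224, an odorant receptor gene, at least 34.5-fold, Enpp3 at least 24.8-fold, Catsperz at least 20.3-fold and Dync1i1 at least 19.3-fold higher. Among the lowest were the peptide hormone Cck at 3.34 and -2.88, transferrin, Trf, at 2.74 and -2.67 (-5.41, 42.6-fold lower), the vesicle protein Mal2 at 3.04 and -2.48 (-5.51) and Syt13, a synaptotagmin, at 1.10 and -3.42 (-4.52). Neurl1a stood at 3.75 and -1.27 (-5.02), Tafa5 at 0.89 and -3.99 (-4.88), Shisa2 at 2.07 and -2.78 (-4.85) and Trp53i11, a p53-inducible gene, at 2.31 and -2.34 (-4.65). Iqgap3, a scaffold expressed in dividing cells, stood at 1.09 and -3.47 (-4.56, 23.5-fold lower). Seen on WT control alone were Rhbdf2, a trafficking factor of ADAM17, at 3.07, at least 183-fold lower in L2AKO, and the leukotriene receptor Cysltr1 at 1.91, at least 82.1-fold lower. Akap5, an anchor of protein kinase A encoded on chromosome 12, was at least 68.0-fold lower and Bex4 at least 58.1-fold lower. The LDL pair gave differences of 5.07 for Fibin, 5.15 for Tro, -5.39 for Trf and -4.60 for Iqgap3.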

How the data were processed

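RNA of aortic smooth muscle cells was hybridised to 1-colour Agilent arrays, 1 µg of total RNA being labelled with Cy3 and 0.6 µg hybridised per array, per the labels' protocols. The deposited scanner files hold, per the file headers, spot intensities that Agilent Feature Extraction (version 10.7.3.1) computed, and its processed signal is background-subtracted within the array. The authors also deposited a table of linear signal values with array medians set nearly equal. RMA and oligo are named, without a version, in the submitters' processing notes, and the scaling of that table stays unknown. It was used as an alternative.

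Control spots were left out, the 134 and 156 outlier spots of the WT control and L2AKO control arrays dropped, repeated spots averaged, and log2 of the deposited intensity taken minus each array's 75th percentile. A probe counted as above background where the scanner's flag said so. Of 55679 probes 28330 were named through accessions in the GRCm38.p6 RefSeq table and 27349 were not. Each gene's values come from the probe brightest on average over the 4 arrays. For a gene above background on 1 array, the bound divides its level there by the higher of the dim probe's own level and the lowest level above background on the dim array. The bounds depend on the background correction. After normexp with an offset of 50 and quantile normalisation, Irx1 differed by -6.21 against a bound of -8.35. Cdh13 differed by -5.30 against -7.44 and Ebf3 by 4.86 against 6.77. Precision is limited by 1 array per group, which allows no test. Python 3.11.15, numpy 2.4.6, pandas 2.3.3, matplotlib 3.10.9, R 4.3.3 and limma 3.58.1 (normexp) were used. The counting code was checked on an array simulated from WT control with the spread of repeated spots, which holds no spread between samples.

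Genes were named by this rule: every probe of Lamp2 and Hspa8, the 15 highest and 15 lowest differences that were at least 2-fold also after normexp with quantile normalisation, up to 10 genes per direction seen on 1 array, and members of each list with the largest differences together with its defining members. Some members that the rule names are not reported here, though counts, medians and the plot of lists include them. The members and lists were chosen with earlier results of these data known. The chromosome counts, the subtraction of chromosome medians and the histone gene family were added after the values were seen. Alternatives changed the scaling, the background correction, the filter on dim probes, the probe rule, the fold and the pair of arrays.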

Additional observations from a re-analysis of the deposited data

Results flagged for a closer look

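Lpar4, which encodes a lysophosphatidic acid receptor on the X chromosome, was the only gene named here and measured on all 4 arrays whose genotype difference lay at least 1.5-fold on opposite sides without and with LDL. It stood at -3.63 on WT control and -1.97 on L2AKO control (difference 1.66), against -3.15 on WT LDL and -4.68 on L2AKO LDL (difference -1.53). The change of direction was not tested. The lowest levels well above background were -4.23 on WT control, -4.45 on L2AKO control, -4.40 on WT LDL and -5.08 on L2AKO LDL. Over the 12492 genes measured on all 4 arrays, 16 lay at least 1.5-fold on opposite sides, 7 of them higher in L2AKO without LDL and 9 lower.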

How the results depend on the processing

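The counts of genes at least 2-fold higher and lower, 952 and 1034, depended on the filter and the fold. Without a filter on dim probes they were 1845 and 2138, and with a signal above background required of 1 array only 1455 and 1627. At 1.5-fold they were 1912 and 2085 and at 3-fold 429 and 470. Under the other settings run (array median, detected-probe percentile, quantile, normexp, the authors' table, all 4 arrays, mean over probes, the arrays with LDL, and the subtracted chromosome median, which was added after the data were seen) both counts stayed within 1.5 times, for example 1082 and 901 with array medians and 681 and 744 after normexp. The share of higher genes, 47.9%, ranged from 44.4% to 54.6%. Impact stood at -0.063 as a mean over its probes, Lpar4 at -1.53 with LDL, and the adipocyte marker median at -0.044 without the filter. No other difference of at least 2-fold of a gene named here changed sign under any setting run. Nor did any other list median of at least 1.5-fold. Of the 407 named genes that were measured, 276 were at least 2-fold apart and so could drop below 2-fold. After normexp 25 of these did, and under the chromosome subtraction 16 did. The genes named for the highest and lowest differences were chosen to be at least 2-fold after normexp too, so that setting could not drop them. No paired analysis was possible because each group had 1 array. Dim probes limit the folds of genes near the lowest levels above background, -4.23 and -4.45. After normexp, Iqgap3 differed by -3.15 in place of -4.56, Tro by 3.50 in place of 5.13 and Cryzl2 by 2.76 in place of 4.44.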

Other observations

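Histone genes lay mostly on the lower side in L2AKO control. The family was taken by the gene names H1f, H2ac, H2bc, H3c and H4c after its values were seen, and holds replication-dependent genes, which are made in S phase, together with linker histones of which some are made outside it. Of 43 such genes on the array 35 were measured, 25 were at least 2-fold lower and 0 at least 2-fold higher, with a median difference of -1.30 and a range from -3.94 to 0.74. Over all measured genes 8.21% were at least 2-fold lower. The H2B genes had the lowest median, -2.81 with 5 of 6 at least 2-fold lower, followed by H2A at -1.29 (8 of 10), H1 at -1.27 (3 of 5), H4 at -1.16 (6 of 8) and H3 at -1.12 (3 of 6). These genes are near-identical copies whose probes can share signal, so their values are not separate measurements, and 26 of the 35 lie on chromosome 13, whose measured genes had a median of -0.20. With LDL the family's median was -1.13. A separate list of replication-dependent and variant histones and high-mobility-group proteins, which shares members with the family, had 4 of 14 measured genes at least 2-fold lower, 0 higher and a median of -0.35.

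Probes that matched no RefSeq accession held differences in both directions, in a smaller share than named probes. Of 7835 such probes well above background on both control arrays, 358 were at least 2-fold higher and 402 lower, against 1205 and 1269 of 16506 named probes.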
